A study of Mus musculus with 2 samples.

Results

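MHC class II molecules display peptides from engulfed material to CD4 T cells. The 9 genes described here carry that pathway in the mouse: H2-Aa and H2-Ab1 encode the α and β chains of I-A, H2-Eb1 the β chain of I-E, Cd74 the invariant chain that occupies the groove until the endosome, H2-DMa and H2-DMb1 the DM heterodimer that exchanges its remnant for peptide, H2-Oa and H2-Ob the DO heterodimer that restrains DM, and Ciita the transactivator that the promoters of the others depend on. Dendritic cells and B cells use the pathway constitutively, macrophages to a degree that depends on their state and on interferon-γ, and in liver it has also been studied in sinusoidal endothelial cells, bile duct cells and stellate cells. The genes were chosen by name, and all 9 were among the 19059 genes of the deposited count tables, each under the Ensembl identifier that GENCODE gives it on GRCm38. Of the members, 7 lie on chromosome 17 within 224 kb (chr17:34092340-34316674), Ciita lies at chr16:10480059-10528418 and Cd74 at chr18:60803848-60812652, all protein coding. Their levels were described in cells gated by marker genes as dendritic, B, macrophage, endothelial, cholangiocyte or stellate, and between the libraries.

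Liver was taken at 27 weeks of age from mice fed a high-fat, high-sugar diet (HF/HSD) for 20 weeks from week 7. The AEG-1 ΔMAC-labelled library comes from mice in which Cre under the lysozyme 2 promoter (LysM-Cre) is meant to delete the floxed AEG-1 gene (Mtdh) from myeloid cells, and the AEG-1 fl/fl-labelled library from floxed littermates without that deletion, on a C57BL/6J background. LysM-Cre acts in macrophages, monocytes and neutrophils, and less completely in dendritic cells. Each label has 1 library, so no difference has a replicate check and none was tested, and the labels state neither the sex nor the number of animals behind a library. RNA was read by hybridised probe pairs in fixed cells. The deposited totals were 79589511 counts in 2581 cells for the AEG-1 ΔMAC-labelled library and 90440089 counts in 3535 cells for the AEG-1 fl/fl-labelled library. The libraries shared 10 cell barcodes. In this text, where 2 values stand side by side without a label, the first is from the AEG-1 ΔMAC-labelled library and the second from the AEG-1 fl/fl-labelled library. CPM are counts per 1000000 of the summed counts of a class, and their Poisson intervals and those of ratios and shares cover counting error only.

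Mtdh, the deleted gene, went against the labels. In macrophage-gated cells it was at 127 CPM (95% interval 111 to 145) in the AEG-1 ΔMAC-labelled library and 22.8 CPM (18.8 to 27.4) in the AEG-1 fl/fl-labelled library, a log2 ratio of 2.48 (2.15 to 2.82). Monocyte-gated cells had 144 and 32.5 CPM, also higher under the label of the deletion. Outside the myeloid lineage the libraries were close in 3 classes, with 89.2 and 95.7 CPM in endothelial-gated, 98.3 and 104 CPM in stellate-gated and 60.1 and 56.2 CPM in hepatocyte-gated cells. In 3 others Mtdh was also higher under the label AEG-1 ΔMAC, by less than in macrophages. B-gated cells had 132 and 74.8 CPM, a log2 ratio of 0.82 (0.15 to 1.49), cholangiocyte-gated cells 97.5 and 70.2 CPM, a ratio of 0.47 (0.01 to 0.92), and T and NK-gated cells 144 and 95.2 CPM, with an interval that includes 0. Dendritic-gated cells had 23 and 30 counts, or 195 and 69.4 CPM. Lyz2, the gene that carries Cre in LysM-Cre mice, had 1833 and 1266 CPM in macrophage-gated cells, also higher under the label of the deletion. Where the Mtdh probes lie relative to the deleted exons was not given in the sources used here. Every direction below is therefore a direction between libraries as labelled, and it may be the reverse of a direction between genotypes. The paper reports weaker macrophage staining and less fibrosis in livers of AEG-1 ΔMAC mice on HF/HSD than in those of AEG-1 fl/fl mice. Those were read from tissue sections and not from these libraries. Here macrophage-gated cells were a smaller share of the cells kept under the label AEG-1 ΔMAC, at 7.24% and 16.2%. The share of hepatocyte-gated cells was larger under that label, at 27.7% and 13.5%. Whether the labels match the genotypes was not tested. The Y-linked gene Ddx3y was counted at 60.6 and 57.8 CPM of the whole library and Uty at 25.6 and 25.3 CPM, so both libraries held RNA of male cells.

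The gates took 17 and 48 cells as dendritic, 47 and 70 as B, 186 and 569 as macrophage, 259 and 363 as endothelial, 37 and 113 as cholangiocyte and 166 and 269 as stellate, out of 2571 and 3508 cells kept. Macrophage-gated cells were thus 7.24% (6.26 to 8.31) and 16.2% (15 to 17.5) of the kept cells. A cell entered a class when the mean standardised level of that class's markers led every other class by at least 0.5, and 1050 and 1382 cells led by less or had too few markers and entered none. Near that cut, within 0.1 of it, lay 17 and 38 macrophage-gated, 11 and 11 endothelial-gated, 10 and 9 stellate-gated, 3 and 2 cholangiocyte-gated, 0 and 1 B-gated and no dendritic-gated cells. None of the 9 genes is a gate marker. The median macrophage-gated cell had 108.5 and 136 counts per 10000 of the macrophage markers, against 5.08 and 4.22 of the dendritic, 5.03 and 2.70 of the endothelial and 0 of the B cell markers. The median dendritic-gated cell had 53.9 and 57.1 of the dendritic markers and 7.53 and 6.83 of the macrophage markers, and the median B-gated cell 95.7 and 88.3 of the B cell markers and 4.94 and 6.61 of the macrophage markers. Hepatocyte markers were present in each of the 6 classes. Their medians were 189 and 156 in dendritic-gated, 276.5 and 149 in macrophage-gated, 360 and 349.6 in B-gated and 505 and 234.5 in stellate-gated cells, beside 1096 and 1081 in hepatocyte-gated cells.

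By class sums, levels of the peptide-binding chains fell in the order dendritic, macrophage, B, stellate, endothelial, cholangiocyte. The places of macrophage and B depend on the sums: with cells weighted equally, the 9 genes summed were at 19307 CPM in B-gated and 15448.5 CPM in macrophage-gated cells of the AEG-1 ΔMAC-labelled library, and at 20444 and 24619.9 CPM in the AEG-1 fl/fl-labelled library. H2-Aa in dendritic-gated cells was at 4949.5 CPM (95% interval 4556 to 5368) in the AEG-1 ΔMAC-labelled library and 4881 CPM (4675 to 5093.5) in the AEG-1 fl/fl-labelled library. Macrophage-gated cells had 1609.9 and 3007.5 CPM of it and B-gated cells 1222 and 1086 CPM. The remaining classes were lower again, with 275 and 392 CPM in stellate-gated, 187 and 226 CPM in endothelial-gated and 109 and 92.6 CPM in cholangiocyte-gated cells. The dendritic level of H2-Aa was 45.6-fold and 52.7-fold that of cholangiocyte-gated cells, and in neither library did the intervals of neighbours in the order overlap.

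H2-Ab1, the partner chain of H2-Aa, had the same order of classes with no overlap between neighbours. It ran from 6797 and 6473 CPM in dendritic-gated through 2038 and 3732 CPM in macrophage-gated and 1442 and 1266 CPM in B-gated cells to 178.5 and 152 CPM in cholangiocyte-gated cells. H2-Eb1 followed that order too, with 7848 and 8343 CPM in dendritic-gated, 2669 and 4994.5 CPM in macrophage-gated and 1859.6 and 1483 CPM in B-gated cells. C57BL/6J mice lack a working I-E α chain, so RNA of H2-Eb1 does not stand for an I-E molecule at the cell surface. Stellate-gated, endothelial-gated and cholangiocyte-gated cells had 542 and 708 CPM, 318 and 418 CPM and 228 and 175 CPM of H2-Eb1.

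Cd74, the invariant chain and also a receptor for the cytokine MIF, was at 16459 CPM (95% interval 15735 to 17207) in the AEG-1 ΔMAC-labelled library and 14783 CPM (14423 to 15150.2) in the AEG-1 fl/fl-labelled library in dendritic-gated cells. Its next place depended on the library. Macrophage-gated cells had 6265.5 and 10199 CPM and B-gated cells 6264 and 4764 CPM, so these classes were alike within counting error in the AEG-1 ΔMAC-labelled library and macrophages stood well above B cells in the AEG-1 fl/fl-labelled library. Stellate-gated cells had 1299 and 1461 CPM, endothelial-gated 863 and 924 CPM, cholangiocyte-gated 569 and 553 CPM and hepatocyte-gated cells 223.5 and 224 CPM.

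The DM genes kept the order of the binding chains at the top. H2-DMa had 373 and 340.2 CPM in dendritic-gated, 134 and 220.2 CPM in macrophage-gated and 119 and 97.9 CPM in B-gated cells, the last pair overlapping in the AEG-1 ΔMAC-labelled library. H2-DMb1 repeated that overlap and added another, between dendritic-gated and macrophage-gated cells of the AEG-1 fl/fl-labelled library. Its values were 237 and 187.5 CPM, 86.3 and 149 CPM and 53.4 and 65.2 CPM in these classes. In stellate-gated, endothelial-gated and cholangiocyte-gated cells both genes lay between 7.98 and 32.4 CPM, and the intervals of most of these neighbours overlapped.

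The DO genes behaved differently from the rest, because macrophages had almost none of their RNA. H2-Ob was highest in B-gated cells at 361 and 370.3 CPM, followed by dendritic-gated cells at 229 and 234 CPM, with overlapping intervals in the AEG-1 ΔMAC-labelled library. Macrophage-gated cells had 2 and 21 counts in all, or 1.15 and 4.17 CPM. H2-Oa was at 229 and 180.5 CPM in dendritic-gated and 126 and 72.9 CPM in B-gated cells, against 4 and 8 counts in macrophage-gated cells. In stellate-gated, endothelial-gated and cholangiocyte-gated cells neither gene exceeded 8 counts in a library. H2-Oa and H2-Ob together made up 4.15% (3.54 to 4.84) and 4.65% (4.08 to 5.27) of the counts of the 9 genes in B-gated cells and 0.0266% (0.00976 to 0.0579) and 0.0255% (0.0171 to 0.0366) in macrophage-gated cells.

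Ciita, the transactivator, put B cells before macrophages. It was at 898 CPM (95% interval 735.5 to 1086.5) in the AEG-1 ΔMAC-labelled library and 833 CPM (749 to 924) in the AEG-1 fl/fl-labelled library in dendritic-gated cells, 276 and 326 CPM in B-gated and 173 and 244 CPM in macrophage-gated cells, with no overlap between these neighbours. Below them it dropped to 12.7 and 37.3 CPM in stellate-gated, 7.98 and 12.1 CPM in endothelial-gated and 5.52 and 10.9 CPM in cholangiocyte-gated cells. The dendritic level of Ciita was 163-fold and 76.7-fold the cholangiocyte level.

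**Figure D1:**
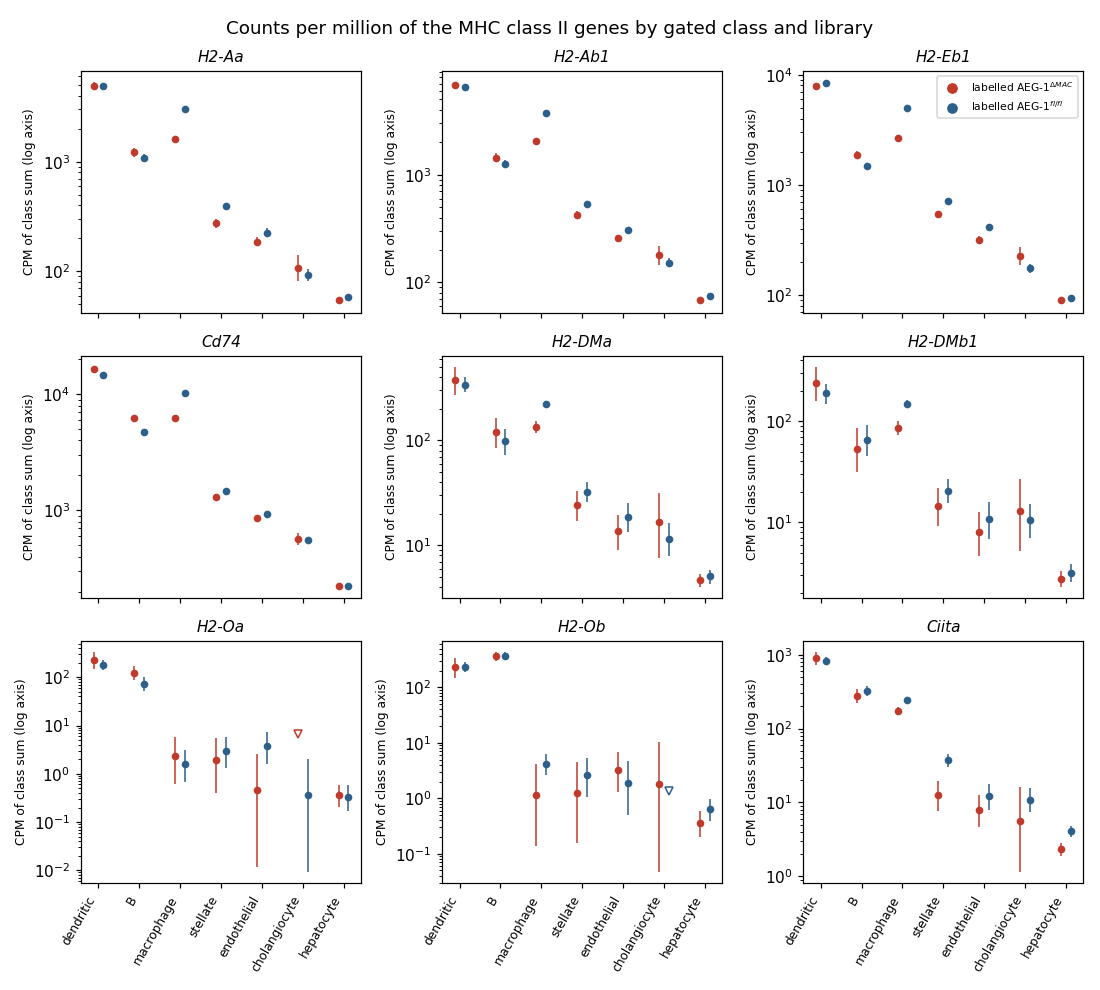
Each panel gives the CPM of 1 gene (log axis) in the class sums of 7 gated classes, with exact Poisson 95% intervals, red for the AEG-1 ΔMAC-labelled library and blue for the AEG-1 fl/fl-labelled library; open triangles mark the upper limit of a count of 0. The macrophage points of H2-Aa, at 1609.9 and 3007.5 CPM, stand apart between libraries, and H2-Oa and H2-Ob drop between B-gated and macrophage-gated cells.

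Shares of cells were taken after thinning each cell to 1000 counts, beside hepatocyte-gated cells as a class that should lack the genes. Cd74 was counted in 94.1% (71.3 to 99.9) and 93.6% (82.5 to 98.7) of dendritic-gated, 95.6% (84.9 to 99.5) and 92.7% (83.7 to 97.6) of B-gated and 87.9% (82.2 to 92.2) and 95.8% (93.8 to 97.3) of macrophage-gated cells. Hepatocyte-gated cells gave 22% (19 to 25.2) and 18.9% (15.4 to 22.7), at median depths of 30421 and 34227 counts per cell before thinning against 5912.5 and 5684 in macrophage-gated cells. Thus about 1 cell in 5 of a class not meant to express Cd74 gave a count of it. Free RNA, mixed droplets and low expression in hepatocytes cannot be told apart here. Stellate-gated cells, at 36.9% (29.4 to 45) and 36.3% (30.4 to 42.6), and endothelial-gated cells, at 34% (28.2 to 40.2) and 31.8% (27 to 36.9), lay above it. Cholangiocyte-gated cells lay above it in the AEG-1 fl/fl-labelled library and overlapped it in the AEG-1 ΔMAC-labelled library, at 22.2% (10.1 to 39.2) and 35.4% (26.6 to 45). Summed macrophage markers stood at 3.62% and 2.49% of the macrophage level in hepatocyte-gated cells. In endothelial-gated cells they stood at 11.7% and 9.55% and in stellate-gated cells at 12.6% and 11.8%. Whether these classes express Cd74 themselves was not tested. Without thinning, Cd74 was counted in 88.5% and 89.2% of hepatocyte-gated and 96.8% and 99.7% of macrophage-gated cells. Thinning left out at most 17 cells of a class and library.

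H2-Aa separated the classes more. It was counted in 88.2% (63.6 to 98.5) and 93.6% (82.5 to 98.7) of dendritic-gated, 71.1% (55.7 to 83.6) and 69.1% (56.7 to 79.8) of B-gated and 55.8% (48.3 to 63.2) and 78.3% (74.6 to 81.6) of macrophage-gated cells. The macrophage shares differed between libraries by more than counting error, and those of the other 2 classes did not. Endothelial-gated cells gave 10.3% (6.82 to 14.7) and 11.7% (8.56 to 15.5) and hepatocyte-gated cells 5.22% (3.70 to 7.12) and 7.84% (5.58 to 10.6). H2-Ob was counted in 44.4% (29.6 to 60) and 42.7% (30.7 to 55.2) of B-gated cells and in 1 of 181 and 2 of 552 macrophage-gated cells.

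In the classes with low levels, macrophage RNA was measured beside the members. Endothelial-gated cells held all 10 macrophage markers, none at 0, at a summed 1274 and 1384 CPM, led by C1qb at 341 and 455 CPM. That was 11.7% and 9.55% of the macrophage level, and the summed members were at 12.8% and 8.51% of theirs. Single markers ranged from 3.24% to 32.4% and from 3.80% to 31.3%, and Ciita stood at 4.61% and 4.94% of its macrophage level. The summed members were at 1657 and 1919 CPM, beside 1512 and 2154 CPM for a macrophage profile at the summed share, and the source of the endothelial counts was not tested. Stellate-gated cells also held all 10 markers, at 1377 and 1704 CPM and led by C1qb, which was 12.6% and 11.8% of the macrophage level. Their members stood at 20% and 14.2%, above that share in both libraries. Single markers ranged from 5.25% to 14.5% and from 6.33% to 20.9%, so the members lay above all of them in the AEG-1 ΔMAC-labelled library and among them in the AEG-1 fl/fl-labelled library. Ciita stood at 7.33% and 15.3% of its macrophage level. Subtraction of the macrophage profile left 957.5 and 539.7 CPM of 2592 and 3192 CPM. Cholangiocyte-gated cells held all 10 markers at 344 and 459.6 CPM, led by C1qb, or 3.15% and 3.17% of the macrophage level, against 8.63% and 4.46% for the members. Their single markers ranged from 0.446% to 7.92% and from 1.23% to 7.86%, with Ciita at 3.19% and 4.45%. Subtraction left 712 and 290.3 CPM of 1121 and 1006 CPM there. RNA from dendritic or B cells was not subtracted, and its part in these levels was not tested.

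Between the libraries, the clearest difference was in macrophages, where the pathway was lower under the label AEG-1 ΔMAC. The 9 genes summed to 12980.1 CPM (95% interval 12811 to 13151) in the AEG-1 ΔMAC-labelled library and 22552 CPM (22421 to 22683) in the AEG-1 fl/fl-labelled library in macrophage-gated cells, a log2 ratio of -0.80 (-0.82 to -0.78). In counts these sums rest on 22567 and 113678. The level under the label AEG-1 fl/fl was 1.74-fold the other.

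The 3 peptide-binding chains moved by nearly the same amount. H2-Aa had 1609.9 and 3007.5 CPM, a log2 ratio of -0.90 (-0.96 to -0.84). H2-Ab1 had 2038 and 3732 CPM, a ratio of -0.87 (-0.92 to -0.82), and H2-Eb1 2669 and 4994.5 CPM, a ratio of -0.90 (-0.95 to -0.86). Cd74 was lower by less, at -0.70 (-0.73 to -0.67), and its interval lay apart from those of the binding chains. The DM genes had -0.72 (-0.93 to -0.51) for H2-DMa and -0.79 (-1.05 to -0.53) for H2-DMb1. Ciita, with 301 and 1231 counts, had the smallest difference of the well-counted members, at -0.50 (-0.68 to -0.31). H2-Ob had 2 and 21 counts and a ratio of -1.86 (-4.99 to 0.18), an interval that includes 0, and H2-Oa had 4 and 8 counts, too few for the count of members.

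Of the 8 members with at least 20 counts over both libraries in macrophage-gated cells, 8 were lower under the label AEG-1 ΔMAC and 0 higher, where 50.4% of 11122 genes tested were lower. Only H2-Ob was at least 2-fold lower, as were 3.43% of all genes, and none was at least 2-fold higher, as were 1.76%. H2-Ob passed the minimum by its counts in 1 library alone, so neither its place among the 8 nor its 2-fold change carries weight, and the other 7 were lower by less than 2-fold. The median log2 ratio of all 8 members, H2-Ob included, was -0.83, beside -0.003 for all genes tested. The classes themselves were not equal in purity. The summed macrophage markers were at 10934 and 14489 CPM, led by C1qb and with 2 of 10 higher under the label AEG-1 ΔMAC. The summed hepatocyte markers, none at 0 and led by Alb, were at 41057 and 28269.6 CPM, with 11 of 12 higher under the label AEG-1 ΔMAC. Relative to the summed macrophage markers, a comparison chosen after the data were seen, the ratio of the summed members was -0.39. The hepatocyte markers stood at 34.5% and 24.8% of their level in hepatocyte-gated cells. Without them in the class total, the ratio of the summed members was -0.78. Only these 12 genes were taken out, so other hepatocyte RNA stayed in the total, and its part was not tested.

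**Figure D2:**
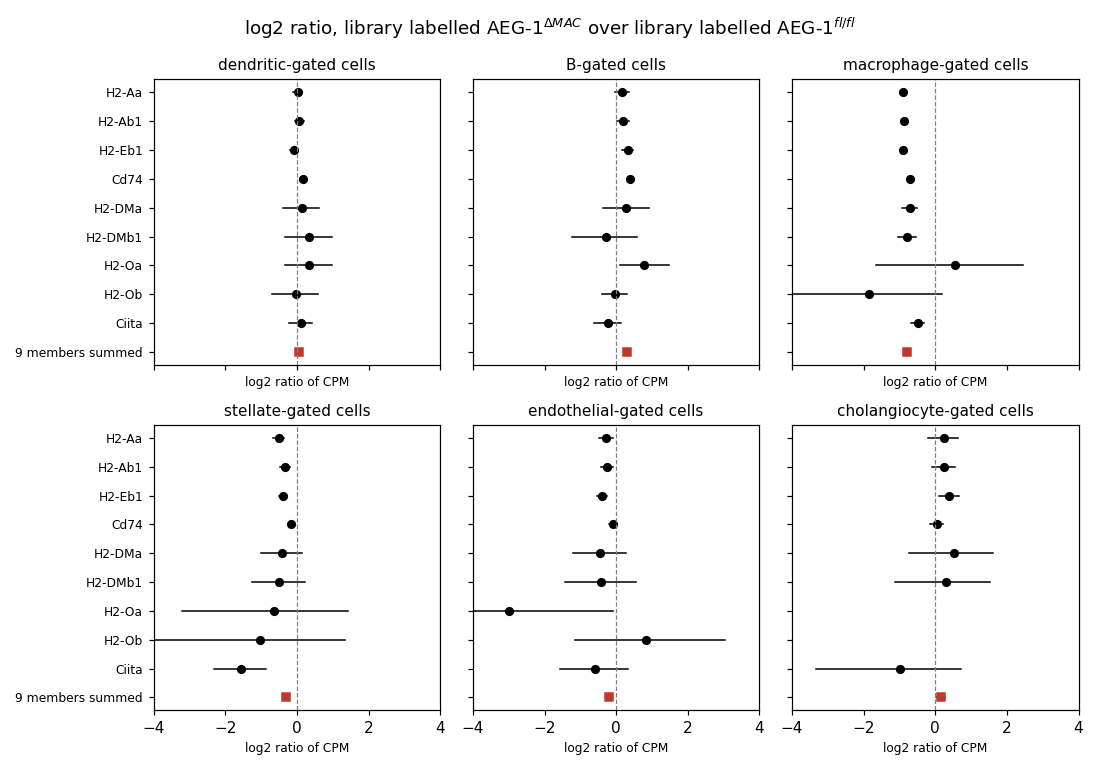
Each panel gives, for 1 gated class, the log2 ratio of CPM (the AEG-1 ΔMAC-labelled library divided by the AEG-1 fl/fl-labelled one) of each gene, as points, and of the 9 genes summed, as a red square, with 95% counting intervals that are cut off at -4 and 4; a gene with 3 or fewer counts in each library has no point. In macrophage-gated cells the square lies at -0.80, and in the other classes it lies between -0.30 and 0.30.

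Macrophage-gated cells were then split by whether the Kupffer cell list (8 genes, among them Clec4f, the lectin of resident liver macrophages) or the list of lipid-associated macrophages (8 genes, among them Gpnmb) scored higher. The Kupffer-leaning cells numbered 143 and 265 and the lipid-associated-leaning 43 and 304, or 1.67% (1.21 to 2.25) and 8.67% (7.76 to 9.65) of all kept cells for the latter. The lipid-associated-leaning cells carried more of the pathway in both libraries: their 9 genes summed to 17781 and 26898 CPM, against 11597 and 16355 CPM in Kupffer-leaning cells. They were also far fewer under the label AEG-1 ΔMAC. Within each subset the difference between libraries remained, with a log2 ratio of -0.50 (-0.52 to -0.47) in Kupffer-leaning and -0.60 (-0.63 to -0.56) in lipid-associated-leaning cells. Neither subset was alike between libraries in its markers, though. Of the 8 markers of lipid-associated macrophages, 7 were lower under the label AEG-1 ΔMAC, among them, chosen after their values were seen, Gpnmb at 1659 and 3567 CPM, Trem2 at 157 and 383 CPM and Spp1 at 48.9 and 434 CPM, and Mmp12 was level at 1425 and 1336 CPM, all in lipid-associated-leaning cells. In Kupffer-leaning cells all 8 were lower under that label, with Trem2 at 74.1 and 156 CPM and Spp1 at 23.7 and 131 CPM, and of the 8 Kupffer cell markers 4 were lower and 4 higher. Whether the members differ between cells of equal state was not tested. Equal parts of both subsets, a weighting chosen after the data were seen, gave -0.56 in place of -0.80. H2-Aa had 1428 and 2189 CPM in Kupffer-leaning and 2240 and 3582 CPM in lipid-associated-leaning cells. Ciita had 150.4 and 206 CPM in Kupffer-leaning cells, while its interval in lipid-associated-leaning cells included 0, at -0.10 (-0.42 to 0.20). Mtdh was higher under the label AEG-1 ΔMAC in both subsets, at 119 and 28.4 CPM and at 154 and 18.9 CPM.

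The cells of a class were far from uniform. In macrophage-gated cells the summed members took a median of 84.8 and 176 counts per 10000, with a 10th percentile of 16.5 and 38.3 and a 90th of 393 and 541. Both ends of the distribution, and the median, were thus lower under the label AEG-1 ΔMAC. In B-gated cells the medians were 173 and 154 and in dendritic-gated cells 328 and 411. The medians in stellate-gated, endothelial-gated and cholangiocyte-gated cells were 6.73 and 6.98, 5.49 and 5.11 and 6.21 and 7.08, beside 3.62 and 2.76 in hepatocyte-gated cells. T and NK-gated cells, also not known for the pathway, had medians of 7.14 and 6. Stellate-gated cells had a long upper end, with 90th percentiles of 70 and 58.3.

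**Figure D3:**
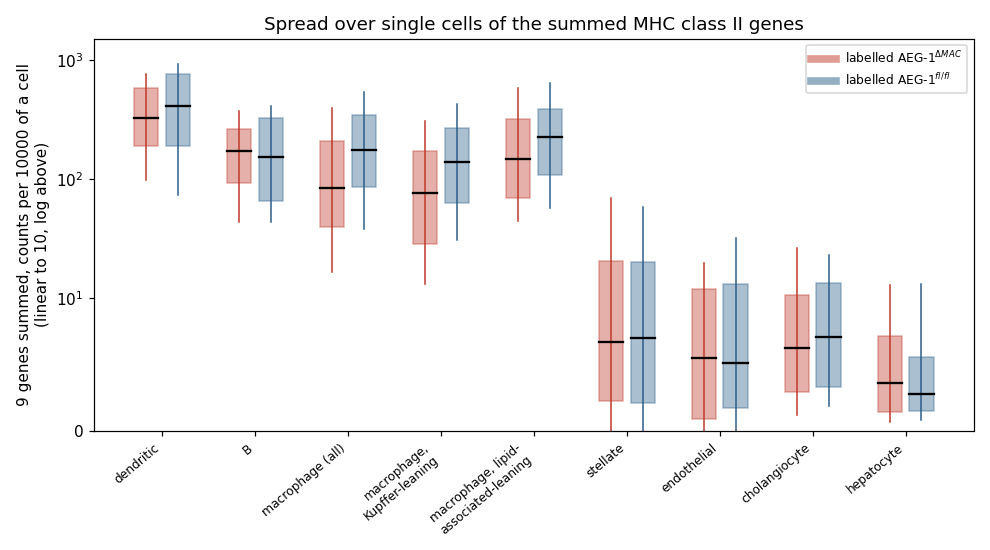
The vertical axis gives the summed counts of the 9 genes per 10000 counts of a cell (linear up to 10 and log above), for each class and for the macrophage subsets; black lines are medians, boxes run from the 25th to the 75th percentile and whiskers from the 10th to the 90th, red for the AEG-1 ΔMAC-labelled library and blue for the AEG-1 fl/fl-labelled library. The macrophage medians are 84.8 and 176, and stellate-gated, endothelial-gated and cholangiocyte-gated cells lie near the hepatocyte-gated cells.

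Dendritic-gated cells, with 17 and 48 cells, hardly differed between libraries by class sums. The 9 genes summed to 38019.5 and 36254 CPM, a log2 ratio of 0.07 (0.02 to 0.12). H2-Aa, H2-Ab1 and H2-Eb1 had ratios of 0.02 (-0.11 to 0.15), 0.07 (-0.04 to 0.18) and -0.09 (-0.19 to 0.02), all within counting error of 0. Cd74, at 0.15 (0.08 to 0.23), was the only member whose interval excluded 0. Of the 9 members 2 were lower, where 46.8% of all 5903 genes tested were, and none was 2-fold lower or higher, where 10.4% and 6.20% of genes were. The sign of the sum did not hold, since cells weighted equally gave -0.26 and the sum without the 5% of cells with the highest totals -0.34.

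In B-gated cells the class sums leaned the other way from macrophages. The 9 genes summed to 11723 and 9532 CPM, a log2 ratio of 0.30 (0.24 to 0.36). Cd74 had 6264 and 4764 CPM and a ratio of 0.39 (0.31 to 0.48), H2-Eb1 0.33 (0.17 to 0.48) and H2-Oa, on 40 and 38 counts, 0.79 (0.11 to 1.47). H2-Ob, its partner in DO, was level at -0.04 (-0.38 to 0.30), and Ciita was at -0.24 (-0.63 to 0.14). Of the 9 members 3 were lower under the label AEG-1 ΔMAC, beside 49.4% of 7302 genes tested, and none passed 2-fold, beside 5.75% of genes that were 2-fold lower and 4.90% that were 2-fold higher. Macrophage markers were also higher there, at 2648 and 1748 CPM, led by C1qb, none at 0 and with 6 of 10 higher under the label AEG-1 ΔMAC. They stood at 24.2% and 12.1% of the macrophage level, while the median B-gated cell had few of them, and their part in the difference was not tested. A few B-gated cells with very high totals weigh on the sums, since without the top 5% of cells the ratio was -0.004. With cells weighted equally it was -0.08, and classes taken from clusters gave -0.48.

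Stellate-gated cells had less of most members under the label AEG-1 ΔMAC, and so did the class as a whole. The 9 genes summed to 2592 and 3192 CPM, a log2 ratio of -0.30 (-0.35 to -0.25). Ciita, on 20 and 100 counts, had 12.7 and 37.3 CPM and was the 1 member at least 2-fold lower, at -1.55 (-2.33 to -0.85). H2-Aa was at -0.51 (-0.68 to -0.35), H2-Ab1 at -0.34 (-0.47 to -0.21), H2-Eb1 at -0.39 (-0.50 to -0.27) and Cd74 at -0.17 (-0.25 to -0.09). All 7 members with 20 counts were lower, but so were 69.6% of the 11197 genes tested, 6.31% of which were 2-fold lower and 1.21% 2-fold higher. The median member, at -0.43, stood beside a median of -0.21 for all genes. Hepatocyte markers were at 67392.5 and 39206 CPM there, led by Alb and with 11 of 12 higher under the label AEG-1 ΔMAC, and their part in the difference was not tested. A gate with a margin of 1 in place of 0.5 gave 0.35 for the sum, the opposite sign.

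Endothelial-gated cells had 1657 and 1919 CPM of the 9 genes summed, a log2 ratio of -0.21 (-0.28 to -0.15). H2-Eb1 was at -0.40 (-0.54 to -0.25), H2-Aa at -0.27 (-0.47 to -0.08) and Cd74 at -0.10 (-0.19 to -0.01). All 7 members with 20 counts were lower under the label AEG-1 ΔMAC, as were 62.9% of the 10952 genes tested. No member passed 2-fold, while 3.16% of genes were 2-fold lower and 2.11% 2-fold higher. The median over the members was -0.40 and over all genes -0.13. Hepatocyte markers were at 56624 and 40559.8 CPM there, led by Alb, none at 0 and with 11 of 12 higher under the label AEG-1 ΔMAC, and their part was not tested. Relative to the endothelial markers the sum changed sign, to 0.14.

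Cholangiocyte-gated cells had 1121 and 1006 CPM of the 9 genes summed, a log2 ratio of 0.16 (0.03 to 0.28) that rests on 609 and 2779 counts. H2-Eb1 was at 0.38 (0.09 to 0.67), and Cd74, at 0.04 (-0.14 to 0.22), was within counting error of 0. Of 7 members with 20 counts 1 was lower, Ciita on 3 and 30 counts, and 6 were higher. Among all 10844 genes 39.1% were lower, 5.28% were 2-fold lower and 4.53% 2-fold higher, and no member passed 2-fold. H2-Oa and H2-Ob had 1 count or none in each library, so their difference was not detectable at this depth. Hepatocyte markers were at 57380.4 and 58880.4 CPM, led by Alb and with 2 of 12 higher under the label AEG-1 ΔMAC. The sign of the sum turned with cells weighted equally, to -0.30.

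Other genes of antigen presentation were read from 7 lists, beginning with macrophages. Of the 7 proteases and reductases that cut antigen and the invariant chain, none was 2-fold changed in macrophage-gated cells, but 6 were lower under the label AEG-1 ΔMAC, beside 50.4% of all genes tested, with a median log2 ratio of -0.73. Ctss, the protease that trims the invariant chain in most presenting cells, had 2524 and 4303 CPM, log2 ratio -0.77 (-0.82 to -0.72). Ctsb was at -0.73, Ctsl at -0.88, Ctsd at -0.97 and Lgmn at -0.30, whereas the reductase Ifi30 was at -0.08 and the invariant chain protease Sppl2a at 0.01. Thus 4 cathepsins were about as much lower as the class II genes. The list median was -0.31 in Kupffer-leaning and -0.71 in lipid-associated-leaning cells. In this and the next 2 paragraphs, listed genes within 2-fold were named after their values were seen, as the ends of a list or for an interval clear of 0.

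Regulators outside the members had no shared shift in macrophages. Of all genes tested 50.4% were lower there, 3.43% were 2-fold lower and 1.76% 2-fold higher. All 12 genes of the transcription list passed 20 counts, 7 were lower, none changed 2-fold, and their median was -0.09. They ran from Rfx5, a subunit of the RFX complex that binds class II promoters, at -0.42 to Nfyc, a subunit of NF-Y, at 0.45. Irf8, which acts on the myeloid promoter of Ciita, had 179.5 and 233 CPM, log2 ratio -0.38 (-0.56 to -0.20), the only interval of the list clear of 0. Of 9 interferon-γ signalling genes with 20 counts in macrophage-gated cells only the receptor chain Ifngr1 was lower, none changed 2-fold, and the median was 0.10. Ifngr1 had 332 and 382 CPM, log2 ratio -0.20 (-0.34 to -0.07), and the chemokine Cxcl9, a target of the pathway, 27.6 and 17.7 CPM, log2 ratio 0.64 (0.11 to 1.17). The direction of this list differed between subsets, with 2 of 9 genes lower and a median of 0.13 in Kupffer-leaning cells, and 6 of 9 lower, 1 of 9 2-fold higher and a median of -0.18 in lipid-associated-leaning cells. Ifng itself had 0 counts in macrophage-gated cells of either library.

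Of the costimulatory and turnover genes 2 of 6 were lower in macrophages, where 50.4% of all genes were, with none past 2-fold and a median of 0.26. March1, the ligase that takes class II molecules from the surface, had 181 and 151 CPM, log2 ratio 0.26 (0.07 to 0.45), and Cd86, a ligand of CD28, was at 0.26. The ends of the list were Cd83 at -0.22 and Cd40 at 0.35. The list medians were -0.04 in Kupffer-leaning and -0.13 in lipid-associated-leaning cells. Of the class I comparison list 7 of 9 genes were lower, with a median of -0.22, and the 1 past 2-fold was H2-D1, with 133 and 268 CPM, log2 ratio -1.01 (-1.22 to -0.81). H2-K1, the other classical heavy chain, was higher at 0.16, while the light chain B2m was at -0.47, the loading factor Tapbp at -0.77 and the transporter chain Tap2 at -0.27. Among receptors of class II and of MIF, 5 of 7 passed 20 counts, 4 were lower and none was 2-fold changed, with a median of -0.46. Lag3 at -0.68 and Cxcr4 at 0.03 were its ends, and Mif was at -0.55. The chains outside the members were hardly counted in macrophages: H2-DMb2 had 6 and 23 counts and H2-Eb2 1 and 7 counts.

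In the other classes the lists held few well-counted changes. Of all genes tested, 10.4% were 2-fold lower and 6.20% 2-fold higher in dendritic-gated, 5.75% and 4.90% in B-gated and 5.28% and 4.53% in cholangiocyte-gated cells. In endothelial-gated cells these shares were 3.16% and 2.11%, and in stellate-gated cells 6.31% and 1.21%. Dendritic-gated cells had 3 of 7 processing genes at least 2-fold lower, with a list median of -0.95 beside 0.07 for all genes: Ctsl, with 67.8 and 243 CPM, log2 ratio -1.84 (-3.09 to -0.81), Ctsd at -1.61 and Lgmn at -1.05. Macrophage markers were at 720.4 and 1775 CPM in these cells, led by C1qb, with 0 of 10 higher under the label AEG-1 ΔMAC and 2 and 0 of them at 0, and their part was not tested. The dendritic transcription list had 2 genes 2-fold higher, all under 100 counts. Its interferon-γ list had 3 genes 2-fold lower, its turnover list 1 and its receptor list 1, again under 100 counts, and its class I list had none past 2-fold. B-gated cells had Ctsl 2-fold lower, with 179 and 429.8 CPM, log2 ratio -1.26 (-1.71 to -0.84), 1 transcription gene 2-fold lower, and 3 interferon-γ genes 2-fold higher, of which Jak2 had 100 counts, with 195 and 82.5 CPM, log2 ratio 1.24 (0.65 to 1.83). Cholangiocyte-gated cells had Ctss at least 2-fold lower, with 93.9 and 190.3 CPM, log2 ratio -1.02 (-1.47 to -0.60), as were Ctsl at -1.14, Mif at -1.36 and Cd44 at -2.42. Their interferon-γ list held genes under 100 counts past 2-fold in both directions. Endothelial-gated cells had 1 turnover gene 2-fold higher and stellate-gated cells 2 turnover genes 2-fold lower, all under 100 counts, and no other listed gene past 2-fold. The processing lists had medians of -0.40 in endothelial-gated, -0.40 in stellate-gated, -0.38 in cholangiocyte-gated and 0.20 in B-gated cells.

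Over the 12 points of 6 classes and 2 libraries, the genes whose log2(CPM + 10) ran most like the mean of H2-Aa, H2-Ab1, H2-Eb1 and Cd74 were sought among 10343 genes with at least 200 counts. The first 6 outside the members were Irf5 (Pearson r = 0.990), Laptm5 (0.987), and Cd83, Trpv2, Il10ra and Sla, each at 0.984. Irf5, a transcription factor of myeloid and B cells, ran from 475 and 507 CPM in dendritic-gated to 9.20 and 9.41 CPM in cholangiocyte-gated cells. Laptm5, a lysosomal membrane protein of blood cells, had 862 and 1313 CPM in macrophage-gated cells. Among the members, H2-DMa reached 0.992, H2-DMb1 0.978 and Ciita 0.962, and H2-Oa and H2-Ob only 0.719 and 0.647. The points share their libraries, and the distance of dendritic, macrophage and B cells from the rest sets much of the pattern, so the coefficients are a description. With a pseudocount of 1 CPM, 4 of the 6 genes were again among the first 6.

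Several members have close copies that probes may not separate. H2-DMb1 and its neighbour H2-DMb2 were identical at 95.5% of 1058 aligned transcript bases, and H2-Eb1 and H2-Eb2 at 78.8% of 770. H2-DMb2 nevertheless ranked the classes differently from H2-DMb1, with 129 and 149.7 CPM in B-gated, 84.8 and 60.2 CPM in dendritic-gated and 3.45 and 4.56 CPM in macrophage-gated cells. How the probes divide these copies was not given in the sources used here.

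The promoters of the class II genes were also described, and their part in any difference between the libraries was not tested. RefSeq windows on GRCm38.p6, from 250 bases before to 50 after the start, were matched for 6 members (H2-Aa, H2-Eb1, H2-DMa, H2-DMb1, H2-Oa and H2-Ob), H2-DMa with 2 windows. The Y box is bound by NF-Y and the X box by the RFX complex, and Ciita acts through both. The letters TGATTGG, the Y box core, were sought on both strands and occurred in 5 of 7 member windows, those of all members but H2-DMa, and in 7.82% of all 32851 windows. The letters GNAAC, part of the X box, starting at most 40 bases before TGATTGG on the same strand, occurred in the same 5 member windows and in 0.910% of all windows. A match is a description of the letters and not evidence of binding. The stretches of H2-Aa and H2-Eb1, which fell most alike between libraries in macrophages, and of H2-Ob, which macrophages hardly expressed, are shown with both motifs in capitals.
H2-Aa promoter (GRCm38.p6, chr17:34287863-34287914, minus strand): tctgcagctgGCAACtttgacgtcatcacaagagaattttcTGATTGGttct
H2-Eb1 promoter (GRCm38.p6, chr17:34305766-34305816, plus strand): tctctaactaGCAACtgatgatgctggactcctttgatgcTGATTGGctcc
H2-Ob promoter (GRCm38.p6, chr17:34238808-34238856, plus strand): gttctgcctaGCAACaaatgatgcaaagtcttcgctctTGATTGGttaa
From the first base of GNAAC to the first base of TGATTGG the distance was 31 bases in H2-Aa, 30 in H2-Eb1 and 28 in H2-Ob, and the Y box core began 50, 61 and 59 bases before the start. H2-Ob thus held both motifs at a spacing close to that of genes that macrophages expressed.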

How the data were processed

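Flash-frozen liver was fixed, dissociated with Liberase and profiled with the 10x fixed RNA probe kit. The deposited counts, whole numbers per gene and cell, were made by the authors with Cell Ranger 7.1.0 on mm10, per the submitters' notes. Members and gene lists were chosen with earlier results of these data known, and the scoring rule of the gate was set after the data were seen. Kept were cells of 100 genes or more and up to 10% mitochondrial counts, the stated filter, which left out 10 and 27 cells. Doublets were not removed. Gates used the mean z score of log1p counts per 10000 over 12 marker lists (score and lead 0.5 or more, 3 markers or more counted). Class sums were given as CPM with exact Poisson intervals, log2 ratios with Clopper-Pearson intervals and shares with exact binomial intervals, and a count of 0 allows 3 counts. Genes needed 20 counts. Named were the members, Mtdh, listed genes past 2-fold with 100 counts and the 6 genes most alike, beside others marked as chosen later. A result for 1 listed gene is not reported here. Ratios were also computed on simulated data, which is no test of a difference between the libraries. Python 3.11.15, SciPy 1.17.1 and Scanpy 1.11.5 were used.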

Additional observations from a re-analysis of the deposited data

Results flagged for a closer look

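The summed members had log2 ratios of opposite sign between libraries in different classes, with counting intervals clear of 0 on both sides. The ratio in macrophage-gated cells lay 0.87 below that in dendritic-gated and 1.10 below that in B-gated cells, and its difference from cholangiocyte-gated cells was -0.95. Dendritic-gated cells lay 0.28 above endothelial-gated and 0.37 above stellate-gated cells. B-gated cells lay 0.51 above endothelial-gated and 0.60 above stellate-gated cells. Cholangiocyte-gated cells lay 0.46 above stellate-gated cells, and endothelial-gated minus cholangiocyte-gated cells was -0.37. None of these differences was tested, since each label has 1 library, and the positive ratios of dendritic-gated, B-gated and cholangiocyte-gated cells changed sign when cells were weighted equally.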

How the results depend on the processing

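The lower summed members of macrophage-gated cells under the label AEG-1 ΔMAC held in every alternative run, with log2 ratios from -0.94 to -0.39; no other class kept its sign in all of them. Log2 ratios of the summed members that left the counting interval or changed sign follow by class. Cells weighted equally gave -0.26 (dendritic), -0.08 (B), -0.67 (macrophage), -0.46 (endothelial), -0.30 (cholangiocyte), -0.17 (stellate). Without the 5% of cells with the highest totals they were -0.34 (dendritic), -0.004 (B), -0.94 (macrophage), -0.43 (endothelial), -0.45 (cholangiocyte), -0.73 (stellate). Classes from clusters made without the members gave -0.22 (dendritic), -0.48 (B), -0.60 (macrophage), -0.47 (endothelial), -0.20 (cholangiocyte), -0.67 (stellate). The cluster macrophages left out a cluster of 50 and 171 cells whose leading genes began with Ccr2 and Gpnmb. It was named monocyte by a score of 3.77 against 3.69 for macrophage, so the macrophage value covers other cells than the gate. A margin of 1 in the gate gave -0.17 (dendritic), -0.10 (B), -0.66 (macrophage), -0.13 (endothelial), 0.01 (cholangiocyte), 0.35 (stellate). Relative to the median of all genes tested they were 0.003 (dendritic), -0.08 (endothelial), 0.01 (cholangiocyte), -0.09 (stellate). A filter of 500 genes and 5% mitochondrial counts gave -0.32 (endothelial), -0.37 (stellate). The macrophage profile subtracted gave 1.29 (cholangiocyte), 0.83 (stellate) and no value for endothelial-gated cells, where 1 library fell below 0. Chosen after the data were seen, ratios relative to the summed markers of the class gave -0.28 (dendritic), 0.07 (B), -0.39 (macrophage), 0.14 (endothelial), -0.29 (cholangiocyte), 0.24 (stellate), and equal parts of the macrophage subsets -0.56 (macrophage). The cause was not tested. Class totals without hepatocyte markers kept all 58 values within their intervals. Only the marker genes were taken out there, so other hepatocyte RNA stayed in the totals, and its part was not tested. H2-Ob in macrophage-gated and Ciita in stellate-gated cells, the members past 2-fold, kept their sign wherever a ratio was obtained. The sign of H2-Ob carries no weight, since it rests on 2 and 21 counts. With the macrophage profile subtracted, Ciita in stellate-gated cells had no ratio. The small dendritic, B and cholangiocyte classes limit what their ratios can show, and no paired analysis was possible because each label has 1 library.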

Other observations

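Classes outside the 6 gated for this description also carried class II RNA. Monocyte-gated cells stood between B-gated and macrophage-gated cells in the AEG-1 fl/fl-labelled library, with the 9 genes summed to 10444.5 and 15394 CPM (27 and 40 cells), and had a log2 ratio of -0.56 (-0.62 to -0.50). H2-Eb1 was at -0.94 (-1.08 to -0.80) and Cd74 at -0.39 (-0.47 to -0.31) in them. Plasmacytoid dendritic-gated cells had 2679 and 7461 CPM (5 and 16 cells), too few cells for a comparison.

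Among class sums, the largest ratios lay in cells not known for the pathway. T and NK-gated cells had 1473 and 5051 CPM (53 and 108 cells) of the summed members, a log2 ratio of -1.78 (-1.93 to -1.63), and neutrophil-gated cells 1919 and 6102 CPM (11 and 55 cells), a ratio of -1.67 (-1.83 to -1.51). The median T and NK-gated cell, however, had 7.14 and 6 counts per 10000, so a minority of cells carried the difference of the sums. With cells weighted equally, the T and NK means were close, at 13 and 15.1 counts per 10000. The 90th percentile was higher under the label AEG-1 ΔMAC, at 30 and 25, so the size of this ratio holds for class sums only. The macrophage markers, none of 10 at 0 and led by C1qb, were at 836.5 and 1709 CPM in T and NK-gated cells, or 7.65% and 11.8% of the macrophage level, beside 11.4% and 22.4% for the members. In neutrophil-gated cells the markers stood at 12.1% and 19.6% of the macrophage level beside 14.8% and 27.1% for the members, and in monocyte-gated cells at 21.1% and 28.7% beside 80.5% and 68.3%. Their part in the ratios was not tested.

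The balance among the members also varied. Cd74 made up 43.3% (41.8 to 44.8) and 40.8% (40 to 41.6) of the counts of the 9 genes in dendritic-gated cells, 48.3% (47.6 to 48.9) and 45.2% (44.9 to 45.5) in macrophage-gated, 53.4% (51.8 to 55) and 50% (48.6 to 51.4) in B-gated and 49.9% (49.2 to 50.6) and 48.1% (47.3 to 48.9) in hepatocyte-gated cells. Its share was lowest in dendritic-gated cells of both libraries, with intervals apart from those of the other classes named here.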
